A study of Homo sapiens with 12 samples.

Results

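The 10 genes described here, known to switch human globin genes between their embryonic, fetal and adult forms, were BCL11A, ZBTB7A, LIN28B, IGF2BP1, HIC2, NFIA, NFIX, MBD2, CHD4 and GATAD2A. They were chosen by symbol from what is known of their roles, with earlier results of these data also known. They are 10 of the 28278 genes in the table, and 9 of the 10 passed the filter on low counts that left 15805 genes for testing. RNA was sequenced from K562, a human erythroleukaemia line. Cells were either wild type (WT) or knocked out for HRG1 (KO), the heme transporter encoded by SLC48A1, and either untreated or given sodium butyrate, a histone deacetylase inhibitor that raises fetal globin. Each of the 4 groups (untreated WT, butyrate-treated WT, untreated KO and butyrate-treated KO) had 3 libraries. All cells were grown in RPMI with heat-inactivated fetal serum, and the design places all of them at day 8 of differentiation. Treated cells received 0.75 mM butyrate first at 24 h from plating, then once more 48 h on, and were harvested 6 h after that second dose. How these hours relate to day 8 cannot be told from the times given. The labels do not say how many KO clones were used or whether the 3 libraries of a group came from separate cultures, so p-values measure the spread between these libraries, and effects of the knockout and of a clone cannot be told apart.

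In human development the beta-like globin cluster on chromosome 11 is read first from the embryonic epsilon gene (HBE1), then from the fetal gamma genes (HBG1 and HBG2), and after birth from beta (HBB) with a little delta (HBD). BCL11A and ZBTB7A bind the gamma promoters and silence them, in part by recruiting the NuRD chromatin remodelling complex, whose subunits include MBD2, CHD4 and GATAD2A. HIC2 silences BCL11A in fetal cells, and NFIA and NFIX favour the adult programme. LIN28B and IGF2BP1 are RNA-binding proteins of fetal cells that lower BCL11A protein: LIN28B also blocks the maturation of let-7 microRNAs, which in turn bind messengers such as LIN28B itself. K562 cells are known to make embryonic and fetal rather than adult globin.

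The let-7 seed and its matches are printed because 3 members that belong to the fetal side carry several of them, as does MBD2 of the silencing side. All 12 let-7 and miR-98 loci listed by RefSeq (GRCh38.p14) give a mature 5p strand with the same seed, bases 2 to 8, shown here in capitals for the pair whose hairpins lie within the MIRLET7BHG gene on chromosome 22.
hsa-let-7a-5p: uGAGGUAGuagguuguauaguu
hsa-let-7b-5p: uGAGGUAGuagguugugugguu
The matching letters CTACCTC were searched on the sense strand of the longest annotated 3′ untranslated region (UTR) of each gene in GENCODE v29 (GRCh38). LIN28B, IGF2BP1 and HIC2 each held 4 matches, MBD2 held 3, NFIA and CHD4 held 1, and BCL11A, ZBTB7A, NFIX and GATAD2A held 0. Other annotated 3′ UTRs of a gene were not searched. A count, also one of 0, and the shares over many genes that follow therefore hold for the longest 3′ UTR only. Over 19115 protein-coding genes 9.57% held at least 1 match and 0.0628% held 4 or more, and among 3419 genes with a 3′ UTR of 3000 bases or more these shares were 25.7% and 0.292%. Matches followed by an A are the form most often bound. With the match in capitals, 1 or 2 of these are shown for LIN28B, IGF2BP1, HIC2 and LIN28A, the paralog of LIN28B. MBD2 also held a match followed by an A, at chr18:54152820-54152847 on the minus strand, which is not printed.
LIN28B chr6:105078807-105078834, plus strand: cctttacccggttgcaaagtCTACCTCa
LIN28B chr6:105081416-105081443, plus strand: actctgtttacagcaaaaggCTACCTCa
IGF2BP1 chr17:49051056-49051083, plus strand: aatgctgtgtgcgaagtaaaCTACCTCa
IGF2BP1 chr17:49053693-49053720, plus strand: ggaaccagcagtgctagtaaCTACCTCa
HIC2 chr22:21450877-21450904, plus strand: tctaccaggaccccctccccCTACCTCa
LIN28A chr1:26427343-26427370, plus strand: ggagtgcacagcctattgaaCTACCTCa
A match is a description of the letters, and microRNAs themselves were not measured here.

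Library totals ran from 19963594 to 30348538 counts, and 3 counts, used as the detection floor, was worth between 0.0953 and 0.162 CPM, the TMM-scaled unit of level used throughout (TMM evens out library size and composition). SLC48A1 was lower in KO than in WT cells, at 5.94 ± 2.74 against 73.7 ± 8.42 CPM untreated and 8.03 ± 2.04 against 67.8 ± 13.9 CPM with butyrate (SD, n = 3). The libraries numbered 1 stood apart in each group: the 28S ribosomal RNA gene RNA28SN5 took 2.30 to 5.63% of their counts and 0.673 to 2.86% of those of the others. Libraries of the same number also tended to move together, though in some comparisons certain libraries of different numbers did so as much. Results are therefore given with the replicate number as a block where this changes a call. Erythroid markers were present in all libraries, summing to 1120 to 3681 CPM over 10 genes. The summed list of 7 megakaryocyte markers, carried mostly by ITGA2B, was 33.4 to 61.0 CPM in untreated and 118 to 227 CPM in treated WT, and 15.6 to 55.4 and 81.7 to 118 CPM in KO, with PF4 at 0 in every library. Myeloid and lymphoid lists reached at most 74.8 and 24.4 CPM, and the summed fibroblast list, carried mostly by COL1A1, was 2.19 to 5.04 CPM in untreated and 43.9 to 154 CPM in treated libraries. The part of these shifts in the results below was not tested, and in bulk RNA fewer cells of a type cannot be told apart from less RNA per cell.

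**Figure D1:**
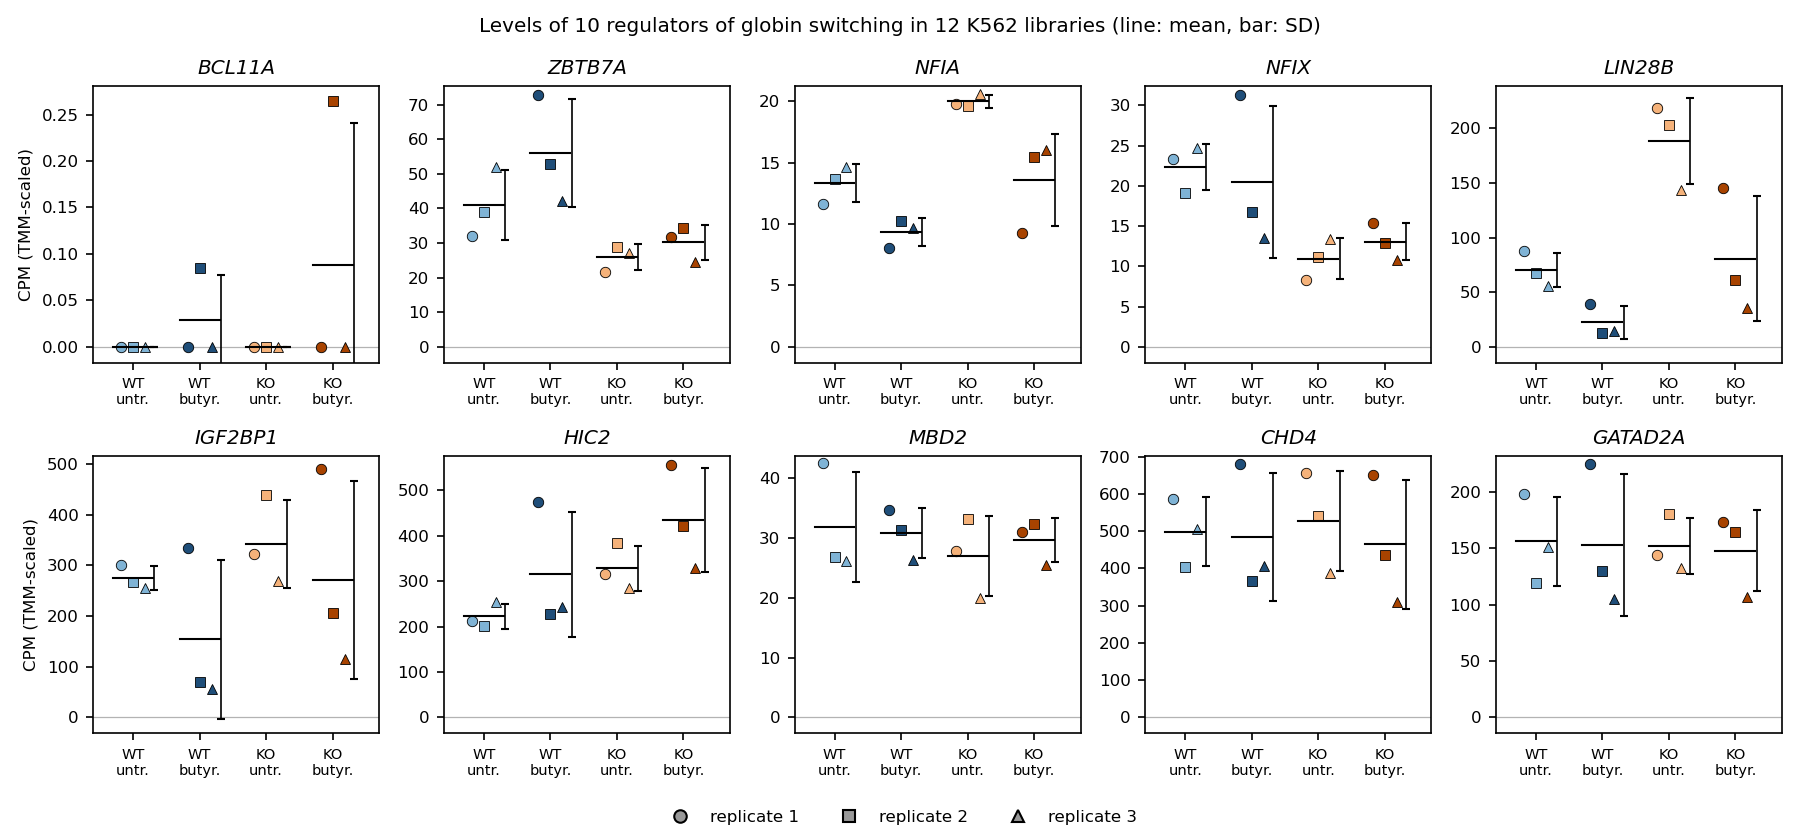
TMM-scaled CPM of the 10 regulators in each library, by group (WT or KO, untreated or butyrate); symbols give the replicate number, lines the group mean and bars the SD (n = 3). LIN28B was highest in untreated KO cells at 144 to 219 CPM, and BCL11A lay near 0 throughout.

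Expressed per kilobase of exon (union of GENCODE v29 exons), which allows genes to be compared, the regulators spanned a wide range in untreated WT cells. CHD4 was highest at 73.3 ± 13.5 CPM per kb (SD, n = 3). IGF2BP1 followed at 33.2 ± 2.83, HIC2 at 30.8 ± 3.93 and GATAD2A at 25.0 ± 6.37 CPM per kb, and each differed from its neighbour in this order by less than their spread. LIN28B lay at 12.3 ± 2.77, ZBTB7A at 7.15 ± 1.76 and MBD2 at 5.65 ± 1.64 CPM per kb, the last pair within their spread. NFIX at 3.66 ± 0.467 and NFIA at 1.30 ± 0.150 CPM per kb were the lowest of those detected. In untreated KO cells LIN28B stood above GATAD2A, at 33.0 ± 6.90 against 24.3 ± 4.004 CPM per kb, and NFIX at 1.79 ± 0.417 CPM per kb no longer stood above NFIA at 1.95 ± 0.0516.

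Few of the regulators changed by the test across all genes. By edgeR's quasi-likelihood test with Benjamini-Hochberg adjustment, butyrate changed 0 of the 9 tested regulators in WT, where 2.35% of all tested genes were called, and 0 of 9 in KO, where 3.4% were called. At an unadjusted p under 0.05 these counts were 1 in WT and 2 in KO, and DESeq2 called 1 and 0. KO differed from WT in 1 of 9 regulators in untreated cells, with 22.6% of all genes called, and in 2 of 9 in treated cells, with 19.0% called. With the replicate block the counts were 1, 1, 2 and 2 of 9, against 8.61%, 11.7%, 33.0% and 29.2% of all genes. Leaving out all 4 libraries numbered 1, a setting chosen once the values were known, they were 2, 2, 3 and 2 of 9, against 11.4%, 13.1%, 26.2% and 24.7%. The test of whether butyrate acted differently in KO and WT called 0 of 9 regulators and 0.0% of all genes, with 0 regulators and 658 genes at an unadjusted p under 0.05 and 81 genes by DESeq2; it called 0 regulators with the block (0.019% of genes) and 0 without the libraries numbered 1 (0.0547%). The median log2 fold change of the 9 lay between -0.05 and 0.08 in the 4 comparisons, beside 0.00 to 0.02 for all genes. Beside this background the counts say nothing of the regulators as a set, and the 3 calls were LIN28B, ZBTB7A and NFIX.

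**Figure D2:**
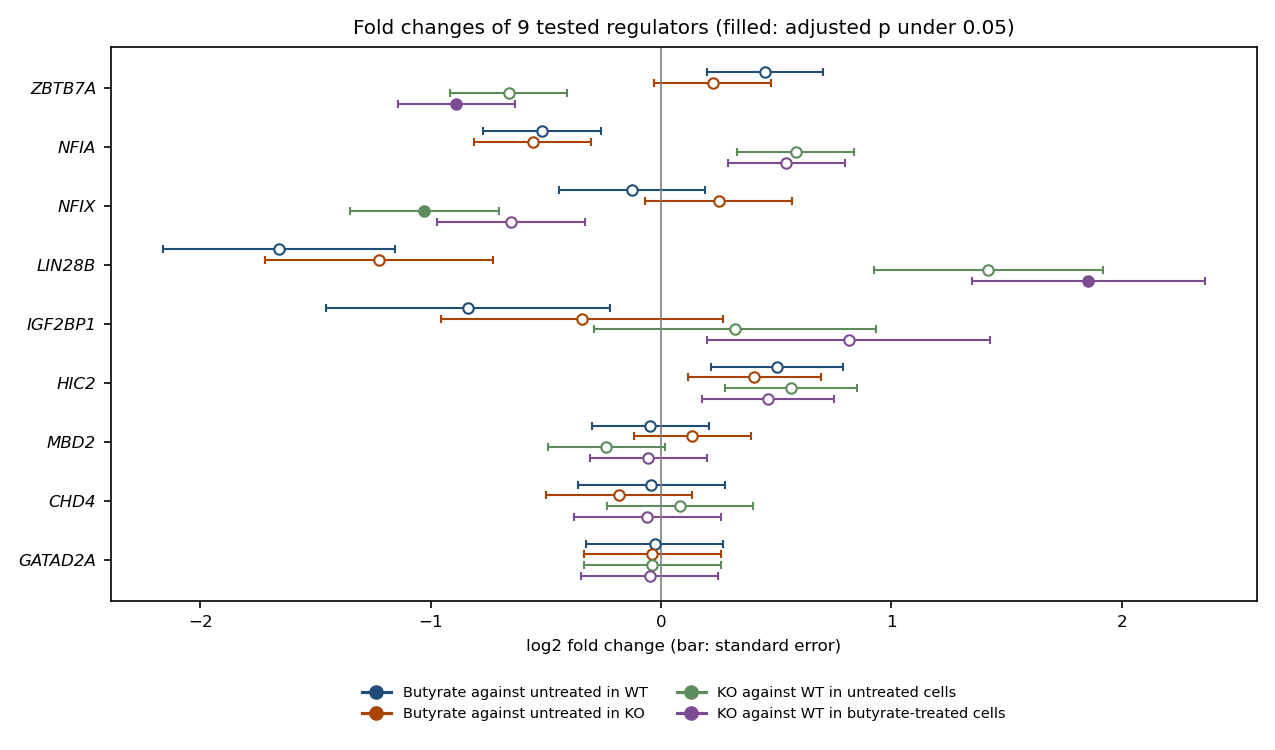
Log2 fold changes with standard errors of the 9 tested regulators in the 4 comparisons from edgeR; filled points have an adjusted p under 0.05. NFIX in untreated cells, and LIN28B and ZBTB7A in treated cells, are the 3 filled points.

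BCL11A, the main silencer of gamma globin, was all but undetected. Its raw count was 0 in 10 of the 12 libraries, 2 in replicate 2 of butyrate-treated WT and 8 in replicate 2 of butyrate-treated KO, so it failed the filter and was not tested. The 8 counts correspond to 0.264 CPM. BCL11B, its paralog, lay at or under the floor in every library.

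ZBTB7A, the other direct gamma silencer, was lower in KO cells. In untreated WT libraries its level was 32.01, 38.9 and 51.9 CPM, and in untreated KO libraries 21.6, 28.96 and 27.1 CPM, so the groups did not overlap. In butyrate-treated WT libraries it was 72.8, 53.0 and 42.2 CPM, and in butyrate-treated KO libraries 31.7, 34.4 and 24.6 CPM, again without overlap. ZBTB7A fell by 0.89 on the log2 scale (SE 0.25) in KO against WT with butyrate, with an adjusted p of 0.0278 by edgeR's quasi-likelihood test. Untreated, the log2 difference was -0.66 (SE 0.25) and the edgeR adjusted p 0.0811. The KO library was the lower one in all 3 replicate numbers in both conditions. The call with butyrate was lost when WT butyrate replicate 1 or 2, or KO butyrate replicate 1 or 3, was left out, with an edgeR adjusted p of up to 0.0983 without KO butyrate replicate 3. Without all libraries numbered 1 the difference was -0.71 and the edgeR adjusted p 0.0533, and under scaling by library size alone they were -0.76 and 0.0568. The 2 tested genes nearest to ZBTB7A in their centred log2 CPM over the 12 libraries were USP42 and CSTF2T, at a root mean square difference of 0.165 and 0.185. Of the ZBTB7 paralogs, ZBTB7B had group means of 49.6 to 55.6 CPM. Untreated, ZBTB7C held 0 counts in each WT library but 7, 30 and 25 in KO, at least 6.55-fold higher against a floor of 3 counts per library. With butyrate WT held 0, 0 and 3 counts and KO 28, 75 and 31, a ratio of 39.9 (exact 95% interval 13.4 to 196, counting error only), and ZBTB7C was called in both genotype comparisons by edgeR (adjusted p = 0.00513 and 0.00899).

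The 3 NuRD subunits MBD2, which binds methylated CpG, CHD4, the ATPase, and GATAD2A, which bridges them, did not pass the test in any comparison. CHD4 had group means from 465 ± 173 to 528 ± 135 CPM (SD, n = 3). GATAD2A ranged from 148 ± 36.0 to 156 ± 39.8 CPM and MBD2 from 26.98 ± 6.67 to 31.8 ± 9.23 CPM. The log2 differences of the 3 genes lay between -0.24 (MBD2, KO against WT, untreated) and 0.14 (MBD2, butyrate in KO), with standard errors of 0.25 to 0.32, and their groups overlapped. Of 11 other NuRD genes, 2 rose in KO cells untreated and 4 with butyrate, and 0 fell, where 22.6% and 19.0% of all tested genes were called. The median log2 difference of the 11 was 0.19 and 0.30, against 0.02 and 0.00 for all genes. HDAC1, a deacetylase subunit, rose by 0.62 (SE 0.19) untreated and 0.64 (SE 0.19) with butyrate (edgeR adjusted p = 0.0352 and 0.0370). RBBP4, a histone-binding subunit, rose by 0.83 and 0.72 (SE 0.23 in both; edgeR adjusted p = 0.0197 and 0.0419). With butyrate MTA3 at 1.14 (SE 0.23) and MTA1 at 0.71 (SE 0.22), both scaffold subunits, were also higher in KO (edgeR adjusted p = 0.00452 and 0.0377). MTA3 was called in every fit that left out 1 library of that comparison, and the other calls here were lost in 4 or 5 of 6 such fits, with edgeR adjusted p up to 0.156 for HDAC1 without KO untreated replicate 1, 0.151 for RBBP4 without KO butyrate replicate 1 and 0.147 for MTA1 without KO butyrate replicate 3.

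CHD3, the alternative ATPase to CHD4, was the 1 of these 11 genes that butyrate changed, and it fell in WT. Its mean was 76.4 ± 2.71 CPM in untreated and 34.8 ± 5.86 CPM in treated WT libraries (SD, n = 3), which did not overlap. CHD3 fell by 1.14 on the log2 scale, with an SE of 0.22 (edgeR adjusted p = 0.0213) in WT. In KO its means were 87.0 ± 8.81 and 54.1 ± 15.7 CPM, a log2 difference of -0.69 (SE 0.21, edgeR adjusted p = 0.101; blocked by replicate number, 0.0338). The WT call was lost in 4 of 6 fits that left out 1 library (any untreated WT library or WT butyrate replicate 2, where the edgeR adjusted p was 0.105). With the block, MTA3 was also lower with butyrate in WT and higher in untreated KO (edgeR adjusted p = 0.0286 and 0.0312), and CHD3 was higher in treated KO (0.0299).

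LIN28B had the widest range among the regulators that passed the test. Its level was 87.4, 67.6 and 56.1 CPM in untreated WT libraries and 39.6, 12.7 and 14.8 CPM in butyrate-treated WT libraries, so every treated library lay below every untreated one. In KO libraries it was 219, 203 and 144 CPM untreated and 145, 60.9 and 36.0 CPM with butyrate, where replicate 1 with butyrate lay just above the lowest untreated value. Untreated KO libraries all lay above untreated WT libraries. With butyrate, KO replicate 3 lay just below WT replicate 1.

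LIN28B rose in KO against WT cells with butyrate by 1.85 on the log2 scale, with an SE of 0.51 (edgeR adjusted p = 0.0221). Untreated, the log2 difference was 1.42 (SE 0.50, edgeR adjusted p = 0.0582), and it passed with the replicate block (adjusted p = 0.00218). Within replicate numbers 1, 2 and 3 the log2 ratio of KO to WT was 1.32, 1.58 and 1.35 untreated and 1.86, 2.22 and 1.26 with butyrate. The butyrate difference was -1.66 (SE 0.50, edgeR adjusted p = 0.109) in WT and -1.23 (SE 0.49, edgeR adjusted p = 0.189) in KO, and both passed with the block (adjusted p = 0.0040 and 0.00922). LIN28B was lower with butyrate in all 3 replicate numbers, with log2 ratios of -1.13, -2.37 and -1.89 in WT and -0.59, -1.73 and -1.98 in KO. The treated genotype call was lost without WT butyrate replicate 2, WT butyrate replicate 3 or KO butyrate replicate 1 (edgeR adjusted p up to 0.103, without KO butyrate replicate 1), while leaving out WT butyrate replicate 1 gave 0.00328. The WT butyrate difference passed without WT butyrate replicate 1 (-2.37, edgeR adjusted p = 0.0155), and the KO one without KO butyrate replicate 1 (-1.96, adjusted p = 0.0338). The butyrate difference in KO minus that in WT was 0.43 (SE 0.69), and no difference between genotypes was called. The 20 tested genes nearest to LIN28B on chromosome 6 had a median log2 difference between KO and WT of 0.38 untreated and 0.33 with butyrate, below that of LIN28B. Nearest to LIN28B in pattern over the 12 libraries were AVEN and UTP20, at a root mean square log2 difference of 0.354 and 0.381.

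A promoter of LIN28B is shown because its messenger was called between the genotypes with butyrate. Over all libraries its butyrate differences passed by edgeR with the replicate block but not without it. RefSeq (GRCh38.p14) gives the 250 bases before one of its start sites as chr6:104956857-104957106, plus strand, here with searched motifs in capitals.
LIN28B promoter: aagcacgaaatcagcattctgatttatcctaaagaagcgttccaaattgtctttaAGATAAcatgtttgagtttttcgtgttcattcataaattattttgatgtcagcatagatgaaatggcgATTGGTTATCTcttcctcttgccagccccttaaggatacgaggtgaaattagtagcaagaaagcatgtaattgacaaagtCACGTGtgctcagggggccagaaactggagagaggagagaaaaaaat
Both strands were searched for the E-box CACGTG, the GATA letters AGATAA, the CACCC box, the CCAAT box and the BCL11A core TGACCA. The window held CACGTG at -47, AGATAA at -195 and, on the other strand, at -122 (TTATCT), which directly follows a reverse CCAAT box (ATTGG) at -127. The window before the other listed start site, chr6:104940715-104940964, held CACCC at -6 and no match to the other motifs searched. Which start site these cells used was not measured. Over 35116 RefSeq promoters of the same length 6.34% held CACGTG, 9.17% AGATAA, 32% CCAAT, 54.7% CACCC and 9.19% TGACCA. A match is a description and shows no binding.

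The other genes of the LIN28 and let-7 pathway were called between the genotypes at 3 of the 7 tested, both untreated and with butyrate, where 22.6% and 19.0% of all tested genes were called. LIN28A, a paralog of LIN28B that also blocks let-7 maturation, was close to undetected in WT and present in KO. Raw LIN28A counts in WT were 2, 0 and 0 untreated and 0, 12 and 8 treated, against 597, 1540 and 1881 in untreated KO and 1503, 3710 and 2395 in treated KO. In untreated cells the ratio of KO to WT was 2013 over the summed counts, with an exact 95% interval of 557 to 16627 that covers counting error only and rests on 2 counts in WT (edgeR adjusted p = 4.87e-06). With butyrate it averaged 89.6 ± 28.8 CPM in KO and 0.255 ± 0.256 CPM in WT (SD, n = 3; edgeR adjusted p = 8.39e-06), and both calls held in all fits that left out 1 library. The 20 tested genes nearest to LIN28A on chromosome 1 had a median log2 difference of -0.16 untreated and -0.11 with butyrate.

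TUT4, the terminal uridylyltransferase that LIN28A recruits to let-7 precursors, was higher in KO. Its mean was 47.6 ± 5.55 CPM in WT and 93.5 ± 10.2 CPM in KO untreated, and 46.5 ± 5.004 and 94.6 ± 6.95 CPM with butyrate (SD, n = 3), without overlap. TUT4 rose by 0.97 and 1.02 on the log2 scale, with an SE of 0.17 in both (edgeR adjusted p = 0.00134 and 0.00122), and held in all fits that left out 1 library. The 20 tested genes nearest to TUT4 on chromosome 1 were also higher in KO at the median, by 0.57 untreated and 0.47 with butyrate, beside 0.10 and 0.05 for all tested genes of that chromosome. MIRLET7BHG, the host transcript of let-7a-3 and let-7b, was low in WT, with raw counts of 20, 8 and 20 without and 42, 12 and 24 with butyrate. KO libraries held 0 counts of it untreated and 0, 2 and 0 with butyrate. MIRLET7BHG was thus at least 5.27-fold higher in WT untreated, against a floor of 3 counts per library, and with butyrate the ratio of WT to KO was 43.7, with an exact 95% interval of 11.7 to 367 for counting error (edgeR adjusted p = 0.00812 and 0.0117). A host transcript is not a measure of the mature microRNA.

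**Figure D3:**
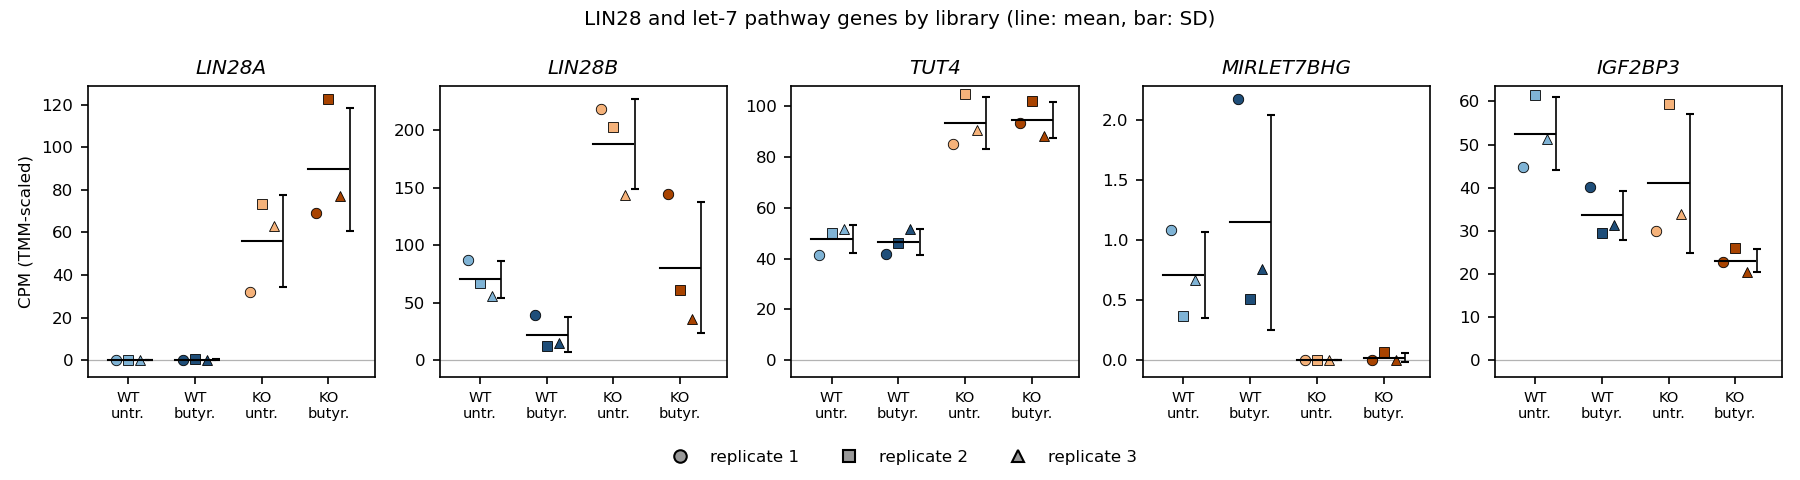
TMM-scaled CPM of LIN28A, LIN28B, TUT4, MIRLET7BHG and IGF2BP3 in each library, by group; symbols give the replicate number, lines the mean and bars the SD (n = 3). LIN28A and TUT4 are higher in all KO libraries, and MIRLET7BHG counts are 0 to 2 in KO.

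IGF2BP1, which binds and stabilises messengers and is a let-7 target, did not pass the test. Its level was 301, 268 and 256 CPM in untreated WT, 335, 70.2 and 56.5 in treated WT, 322, 438 and 269 in untreated KO, and 490, 206 and 116 CPM in treated KO. In replicates 2 and 3 the treated libraries were the lower ones, by log2 ratios of -1.92 and -2.17 in WT and -1.09 and -1.21 in KO. In replicate 1 the treated library was the higher one, by 0.16 in WT and 0.61 in KO. Over all libraries the butyrate difference was -0.84 (SE 0.62, edgeR adjusted p = 0.527) in WT and -0.34 (SE 0.61, edgeR adjusted p = 0.810) in KO. Without all libraries numbered 1, IGF2BP1 was -2.06 in WT and -1.15 in KO, with edgeR adjusted p of 0.00431 and 0.0350. In that fit butyrate called 2 of 9 regulators in WT, LIN28B and IGF2BP1. In treated cells KO was above WT in each replicate number, with log2 ratios of 0.55, 1.54 and 1.03 (edgeR adjusted p = 0.410 over all libraries, 0.0118 without those numbered 1, and 0.00917 without WT butyrate replicate 1). Its paralogs were not called: IGF2BP2 had group means of 44.1 to 75.1 CPM, and IGF2BP3 differed with butyrate by -0.83 in KO (edgeR adjusted p = 0.107; blocked by replicate number, 0.0447).

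HIC2, a repressor of BCL11A, was 212, 201 and 254 CPM in untreated WT and 474, 228 and 244 CPM in treated WT. In KO it was 317, 383 and 285 CPM untreated and 555, 420.5 and 329 CPM with butyrate. The treated library of replicate 1 was the highest of its genotype, at log2 ratios of 1.16 in WT and 0.81 in KO, beside 0.18 and -0.06 in WT and 0.13 and 0.20 in KO for replicates 2 and 3. Untreated KO libraries all lay above untreated WT libraries, but the log2 difference of 0.56 (SE 0.29) did not pass (edgeR adjusted p = 0.189), nor did the butyrate differences of 0.50 in WT and 0.41 in KO (edgeR adjusted p = 0.394 and 0.471). With butyrate the KO library was above the WT library in all 3 numbers, with an overall difference of 0.47 (edgeR adjusted p = 0.303, and 0.0223 without WT butyrate replicate 1). The other 416 tested genes of chromosome 22 had a median log2 difference between KO and WT of 0.27 untreated and 0.41 with butyrate. For the 20 nearest to HIC2 it was -0.14 and 0.13. The part of the chromosome in the HIC2 differences was not tested. The HIC2 paralog HIC1 reached at most 4.52 CPM.

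**Figure D4:**
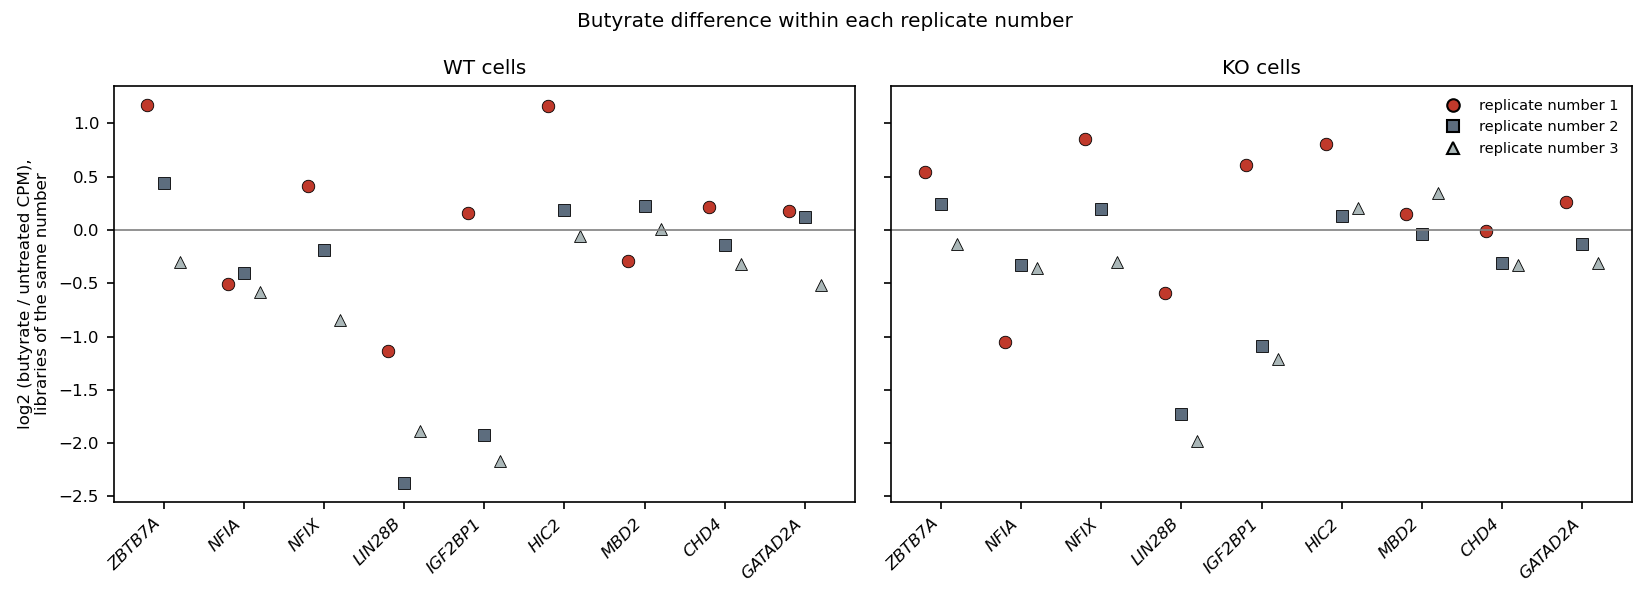
Log2 ratio of butyrate to untreated CPM between libraries of the same replicate number for the 9 tested regulators, in WT (left) and KO (right). IGF2BP1 lies above 0 in number 1 and below -1 in numbers 2 and 3, and LIN28B lies below 0 in all 3.

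Of the nuclear factor I proteins NFIA and NFIX, transcription factors that bind the same DNA motif, NFIX was called lower in untreated KO and NFIA was called in no comparison. NFIX was 23.3, 19.2 and 24.6 CPM in untreated WT and 8.29, 11.2 and 13.4 CPM in untreated KO libraries, which did not overlap. NFIX fell in untreated KO by 1.03 on the log2 scale, with an SE of 0.32 (edgeR adjusted p = 0.0364). It was lower in KO in all 3 replicate numbers. In treated cells it was 31.3, 16.8 and 13.5 CPM in WT and 15.4, 12.95 and 10.8 CPM in KO, with a difference of -0.65 (SE 0.32, edgeR adjusted p = 0.185) and overlapping groups. The untreated call held in 1 of 6 fits that left out 1 library, the one without KO untreated replicate 3 (edgeR adjusted p = 0.0433), and reached 0.134 without KO untreated replicate 1. Nearest to NFIX in pattern were CD58 and REPIN1, at root mean square log2 differences of 0.1765 and 0.188.

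NFIA was 11.6, 13.7 and 14.7 CPM in untreated WT, 8.04, 10.2 and 9.66 in treated WT, 19.8, 19.6 and 20.6 in untreated KO, and 9.28, 15.5 and 16.0 CPM in treated KO. Every treated library was below every untreated library in both genotypes, and every untreated KO library was above the untreated WT libraries. The log2 differences were -0.52 and -0.56 with butyrate in WT and KO, and 0.58 and 0.54 between KO and WT untreated and treated, with standard errors of 0.25 to 0.26. None passed, with edgeR adjusted p of 0.316, 0.247, 0.122 and 0.166. The 20 tested genes nearest to NFIA on chromosome 1 had a median log2 difference between KO and WT of 0.97 untreated and 0.61 with butyrate, above that of NFIA in both. Of their paralogs, NFIB had group means of 3.74 to 6.11 CPM and NFIC of 50.4 to 81.9 CPM, and neither was called.

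Groups that did not overlap were also common among all genes. With butyrate 2 of 9 regulators were lower without overlap in WT (LIN28B and NFIA) and 1 in KO (NFIA), and 0 were higher. Of all genes 10.4% were lower and 11.3% higher without overlap in WT, and 11.8% and 12.6% in KO. Untreated, 3 regulators were higher in KO (LIN28B, HIC2 and NFIA) and 2 lower (ZBTB7A and NFIX), beside 22.2% of all genes higher and 20.2% lower. With butyrate 0 were higher and 1 lower (ZBTB7A), beside 17.9% and 16.0% of all genes.

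Of 25 further genes reported to regulate globin switching, 1 rose and 4 fell in untreated KO, where 22.6% of all tested genes were called. In treated KO 0 rose and 4 fell, where 19.0% of all tested genes were called. These counts lie near the background and say nothing of the 25 genes as a set. Butyrate changed 0 of them in either genotype by edgeR. The count was also 0 by DESeq2, with the replicate block, and at an unadjusted p under 0.05. SOX6, which acts with BCL11A to silence gamma and epsilon globin, differed in KO by -4.28 (SE 0.86) untreated and by -4.92 (SE 0.89) with butyrate (edgeR adjusted p = 0.00328 and 0.00215). Untreated libraries held 107, 124 and 177 SOX6 counts in WT but 0, 16 and 4 in KO, so the size of this fold rests on few counts. LDB1, which loops the globin enhancer to its promoters, differed by -0.89 and -0.69, and EIF2AK1, the heme-regulated kinase, by -0.72 and -1.001 (edgeR adjusted p = 0.00404, 0.0199, 0.00623 and 0.00103). HDAC3, the NCoR deacetylase, differed by -0.58 and -0.73 (edgeR adjusted p = 0.0351 and 0.0133), the first lost in each of 6 fits that left out 1 library. LDB1 with butyrate was lost in 3 such fits (without WT butyrate replicate 1, KO butyrate replicate 2 or KO butyrate replicate 3), and HDAC3 with butyrate in 2 (without WT butyrate replicate 2 or KO butyrate replicate 1). FOXO3 rose by 0.76 in untreated KO (SE 0.22, edgeR adjusted p = 0.0250), lost in 4 of 6 such fits. GATA1, the master erythroid factor, differed by -0.77 in both conditions (edgeR adjusted p = 0.0880 and 0.1005, and 0.0199 and 0.0274 with the block). The treated GATA1 difference was -0.33 without WT butyrate replicate 1 (edgeR adjusted p = 0.367) and -1.07 without WT butyrate replicate 3, where it passed (0.0190). KLF1, which activates adult beta globin and BCL11A, differed by -1.07 in untreated cells (edgeR adjusted p = 0.228, and 0.0449 with the block).

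Beside these regulators, the counts of the beta-like globin cluster were almost wholly epsilon and gamma in every library. HBB took at most 0.0292% of the beta-like globin counts (HBE1, HBG1, HBG2, HBD and HBB). HBG1 and HBG2 are near-identical copies and were summed. The gamma share was 64.6, 67.2 and 66.2% in untreated WT and 56.8, 58.2 and 59.2% in treated WT, and 98.7, 98.7 and 99.3% in untreated KO and 88.7, 90.3 and 96.7% in treated KO. KO libraries all lay above WT libraries, and treated libraries below untreated ones of the same genotype. The gamma share was 32.9 percentage points higher in KO than WT untreated and 33.8 points with butyrate, and differed with butyrate by -7.92 points in WT and -6.98 points in KO. The two-sided exact permutation p was 0.1 in all 4 comparisons, the smallest that 3 libraries against 3 allow.

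That higher share went with a lower level. Summed gamma was 8338 ± 3182 CPM in untreated WT and 2042 ± 619 CPM in untreated KO, and 21628 ± 8018 and 2793 ± 608 CPM with butyrate (SD, n = 3). HBG1 fell in KO, with log2 differences of -2.19 (SE 0.38) untreated and -3.14 (SE 0.39) with butyrate, as did HBE1, with -7.99 (SE 0.77) and -6.02 (SE 0.70), with edgeR adjusted p of 0.00121, 0.000159, 1.65e-05 and 9.88e-05. HBE1 took 34.0 ± 1.35% of beta-like counts in untreated WT and 0.837 ± 0.409% in untreated KO. With HBE1 left out of the denominator the gamma share differed by -0.24 points untreated and -0.18 points with butyrate between KO and WT, so the direction of the gamma share turned. HBE1 rose with butyrate in KO by 3.83 (SE 0.63, edgeR adjusted p = 0.00995, and 0.0675 without KO untreated replicate 2). Of the 8 tested globins, 5 fell in KO in both conditions: HBE1, HBG1, HBG2, and the alpha globins HBA1 and HBA2, which are near-identical copies. HBA1 differed between KO and WT by -1.92 (SE 0.54) untreated and -3.48 (SE 0.58) with butyrate (edgeR adjusted p = 0.0225 and 0.00123), and HBA2 by -2.15 and -3.71 (edgeR adjusted p = 0.0155 and 0.00104). The untreated alpha calls were lost without WT untreated replicate 1, KO untreated replicate 2 or KO untreated replicate 3 (edgeR adjusted p up to 0.0889 for HBA1), and the treated ones held in all 6 fits. With butyrate 3 globins rose in WT: HBA1 by 2.61 (SE 0.56), HBA2 by 2.73 (SE 0.57) and HBD by 2.08 (SE 0.45), with edgeR adjusted p of 0.0327, 0.0321 and 0.0361. HBA1 went from 655 ± 318 to 4009 ± 3269 CPM and HBD from 4.11 ± 1.61 to 17.4 ± 2.92 CPM (SD, n = 3). These 3 calls were lost without any 1 of the untreated WT libraries or WT butyrate replicate 2, and that of HBD also without WT butyrate replicate 3 (edgeR adjusted p up to 0.145). HBZ, the embryonic alpha-like globin, was called in no comparison and had means of 310.2 ± 151 and 3050.2 ± 3926 CPM in untreated and treated WT and 455 ± 248 and 730 ± 331 CPM in KO. HBQ1, also called in no comparison, had means of 26.3 ± 3.36 and 27.4 ± 4.14 CPM in untreated and treated WT and 22.5 ± 5.17 and 21.1 ± 7.91 CPM in KO. In WT the butyrate differences of HBE1, HBG1 and HBG2 were 1.86, 1.42 and 1.35 (edgeR adjusted p = 0.117, 0.0669 and 0.0796, and 0.0203, 0.00452 and 0.00612 with the block). In KO those of HBG1 and HBG2 were 0.47 and 0.44 (edgeR adjusted p = 0.510 and 0.544). The 20 tested genes nearest to HBE1 had a median log2 difference of -2.18 between KO and WT untreated and -2.85 with butyrate. For the 20 nearest to HBG1 it was -2.40 and -2.85, beside -2.19 and -3.14 for HBG1. For the 20 nearest to HBG2 it was -2.38 and -2.96, beside -1.95 and -2.85 for HBG2. These sets share genes, and the part of the region in the globin differences was not tested.

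**Figure D5:**
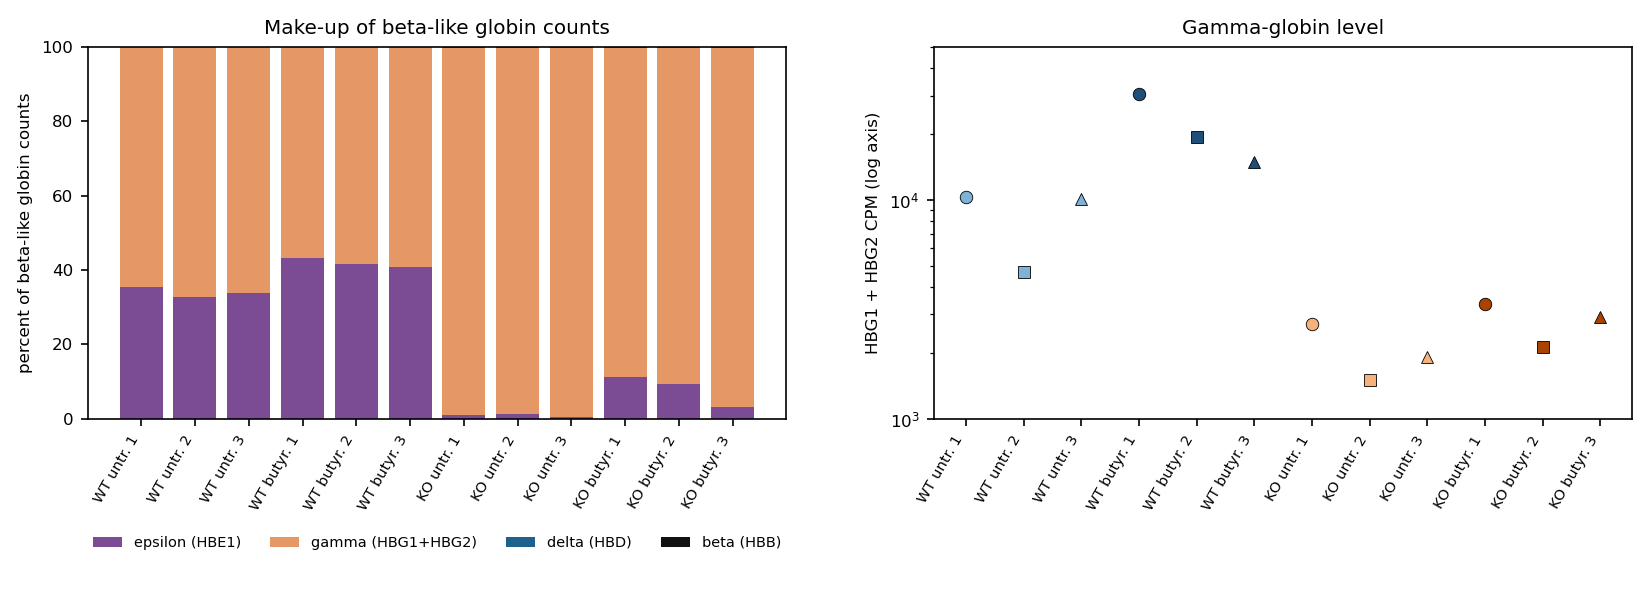
Left, percent of beta-like globin counts from epsilon, gamma, delta and beta genes in each library. Right, HBG1 plus HBG2 in TMM-scaled CPM on a log axis. KO libraries have gamma shares of 88.7 to 99.3% and lower gamma levels than WT libraries.

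Side by side, KO cells had higher LIN28A and TUT4, and lower SOX6, LDB1, gamma and epsilon globin than WT cells, untreated and with butyrate. BCL11A was undetected in untreated cells. By edgeR without the replicate block NFIX was called only untreated, and LIN28B and ZBTB7A only with butyrate. Each call was lost in some fits that left out 1 library, and LIN28B also passed untreated with the block. Log2 differences untreated and treated were 1.42 and 1.85 for LIN28B, -0.66 and -0.89 for ZBTB7A, and -1.03 and -0.65 for NFIX. The test of whether butyrate acted differently in KO and WT called 0 of 9 regulators. In treated cells KO had a higher gamma share of beta-like counts, a share that differed by -0.18 points once HBE1 was left out. These are levels in the same libraries, and no link between a regulator and a globin was tested.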

How the data were processed

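RNA of 12 K562 libraries was sequenced, 4 groups of 3, with groups and replicate numbers taken from the sample titles. The authors deposited whole-number counts per gene symbol. Per the submitters' processing notes the build was hg38, with FastQC 0.12.1 and STAR 2.7.11b. The counting tool, annotation and strand setting are not given in the sources used here, so near-identical copies (HBG1 and HBG2, HBA1 and HBA2), overlapping genes and antisense genes can share reads. No column was unused (0) and 0 rows named no gene.

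The deposited counts went unaltered into edgeR 4.0.16 (R 4.3.3): filterByExpr (minimum count 10; 15805 of 28278 genes kept, 6319 held 0 counts everywhere), TMM, a mean per group over all 12 libraries (biological coefficient of variation 0.384), quasi-likelihood F-tests of 5 contrasts, and Benjamini-Hochberg adjustment over all tested genes with a threshold of 0.05. Globin shares were compared by two-sided exact permutation tests (SciPy). Levels per kilobase used GENCODE v29 exons, and gene positions came from RefSeq (15165 of 15805 tested genes matched by symbol). A floor of 3 counts and all intervals cover counting error only, and no molecular identifiers are described.

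Replicate numbers came from the titles and were used to pair the libraries. Deviations from group means correlated by 0.2405 to 0.6824 between libraries of the same number. Between different numbers the highest correlation was 0.4469 for treated KO against WT and 0.2719 for butyrate in WT. These lay above the lowest same-number values there, 0.3756 and 0.2566. It was 0.1332 for untreated KO against WT and 0.1295 for butyrate in KO, below the lowest same-number values of 0.2877 and 0.2405. No replicates were the same library (smallest chi-square per degree of freedom 39.95). On simulated counts for the butyrate comparison in WT, with 15805 genes, 18% of 100 genes changed 2-fold and 90% of 100 changed 4-fold were called, with 7 calls among unchanged genes.

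The members and gene lists were chosen with earlier results of these data known. Named genes were the members, the globins, SLC48A1, genes of the context lists (other NuRD subunits, LIN28 and let-7 pathway, paralogs, other switching regulators) called in a contrast, the members' paralogs, up to 2 others per list with the smallest adjusted p, and for each member called the 2 genes nearest in pattern. Alternatives were DESeq2 1.42.0 (size factors and Wald test), library size alone, other count filters, the replicate block, HBE1 left out of the globin share, leaving out each library, and, added after seeing the data, leaving out the libraries numbered 1.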

Additional observations from a re-analysis of the deposited data

How the results depend on the processing

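The counts of calls moved with the replicate block, with DESeq2 and with the libraries left out, and the cause was not tested. Genes called with butyrate in WT numbered 372, and 1331 by DESeq2's Wald test, 1361 with the replicate block, 1884 without the libraries numbered 1 (chosen after seeing the data) and 43 (without WT untreated replicate 2) to 1243 (without WT butyrate replicate 1) when 1 library was left out. In KO they numbered 537, and 1538, 1852, 2164 and 48 (without KO untreated replicate 2) to 833 under the same settings, and 304 where each library had to hold at least 10 counts, which tests fewer genes. KO against WT called 3574 genes untreated (2334 with that filter, 2485 to 2844 leaving out 1 library) and 3009 with butyrate (1947 with that filter, 4612 with the block, 2014 to 3477 leaving out 1 library). The interaction called 0 genes, and 81 by DESeq2, 2 with no filter, 1 with at least 10 counts, 3 with the block, 9 without the libraries numbered 1 and 0 to 2 leaving out 1 library.

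Regulators called with butyrate in WT were 0 of 9, and 1 by DESeq2, 1 with the block, 2 without the libraries numbered 1 and 0 to 2 leaving out 1 library. In KO they were 0, and 1 with the block, 2 without the libraries numbered 1 and 0 to 1 leaving out 1 library. Between untreated genotypes 1 was called, and 2 under library size alone, no filter or the block, 3 by DESeq2 or without the libraries numbered 1, and 0 to 1 leaving out 1 library. Between treated genotypes 2 were called, 1 under library size alone, where the ZBTB7A call was lost, and 0 to 3 leaving out 1 library. Library size alone moved the median of all genes by 0.12 for butyrate in KO and 0.11 for the interaction.

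Some differences that were not called changed sign, and none passed the test with the turned sign. With at least 10 counts in every library the WT butyrate difference was 0.012 for MBD2, 0.011 for CHD4 and 0.024 for GATAD2A, and the KO one 0.038 for GATAD2A. Under library size alone GATAD2A was 0.078 for butyrate in KO, and the treated genotype differences were 0.047 for MBD2, 0.062 for CHD4 and 0.089 for GATAD2A. Without the libraries numbered 1, MBD2 was 0.11 for butyrate in WT, NFIX -0.070 for butyrate in KO, GATAD2A 0.19 between both untreated and treated genotypes, and the ZBTB7A interaction 0.0063. Leaving out 1 library gave these ranges. For butyrate in WT they were CHD4 -0.38 to 0.12, GATAD2A -0.42 to 0.18, MBD2 -0.16 to 0.21 and NFIX -0.57 to 0.098. For butyrate in KO they were CHD4 -0.51 to 0.057, GATAD2A -0.17 to 0.16, MBD2 -0.034 to 0.32, IGF2BP1 -1.10 to 0.034 and HBD -0.090 to 0.73. Between untreated genotypes they were CHD4 -0.10 to 0.23, GATAD2A -0.20 to 0.17 and MBD2 -0.44 to 0.027, and between treated genotypes CHD4 -0.38 to 0.26, GATAD2A -0.28 to 0.32 and MBD2 -0.17 to 0.032. For the interaction they were IGF2BP1 -0.26 to 1.79, LIN28B -0.30 to 1.15 and ZBTB7A -0.43 to 0.022.

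With HBE1 left out of the denominator the gamma share differed with butyrate by -0.035 points in WT and 0.017 points in KO, and between genotypes by -0.24 points untreated and -0.18 points with butyrate. Beside the calls given with the results, the replicate block brought past the edgeR threshold HIF1A in untreated KO (adjusted p = 0.0649, and 0.0435 with the block), HBZ with butyrate in WT (0.0761 and 0.0136), HBA2 with butyrate in KO (0.261 and 0.0488) and HBD between treated genotypes (0.0601 and 0.0256), and it changed no other call of a regulator, globin or listed pathway gene. In simulated counts for butyrate in WT a 2-fold change was mostly missed, so a regulator not called in that comparison may still have changed. The other comparisons were not simulated.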
